A study of Mus musculus with 35 samples.

Results

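Molecular chaperones are proteins that help others fold, refold or assemble. The genes described here are the mouse chaperone genes of the cytosol and mitochondria, examined for binding of the tagged elongation factor subunit NELFA in embryonic stem cells. They were chosen by symbol among the protein-coding genes of the RefSeq annotation of mm10: the heat shock protein genes (Hsp), the J-protein genes (Dnaja, Dnajb and Dnajc), the chaperonin genes (Cct and Tcp1), the Bag genes and the heat shock factor genes (Hsf). Hspa5 and Hsp90b1, which encode chaperones of the endoplasmic reticulum, were left out, which gave 93 genes of 21883 in all. The symbols also take in genes whose proteins are known to sit in or at the endoplasmic reticulum. The set is therefore not purely cytosolic and mitochondrial. Listed apart were 8 such genes (Dnajb9, Dnajb11, Dnajb12, Dnajb14, Dnajc1, Dnajc3, Dnajc10 and Hspa13), and this list may not be complete. The heat shock factor genes do not themselves encode chaperones, and Hspbp1 and Hspbap1 entered by their symbols alone. All 93 genes are called chaperone genes below. No measured value entered the choice by symbol. The set itself was proposed with earlier results of these data known.

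The series asked how NELFA relates to 2-cell-like cells in cultures of mouse embryonic stem cells. The 7 ChIP-seq libraries used here came from the mouse embryonic stem cell line E14, cultured in medium with serum, LIF and 2i, which carried a doxycycline-inducible NELFA-StrepHA transgene linked to EGFP. Doxycycline was given at 0.4 µg/ml for 16 h, and sonicated chromatin from formaldehyde-fixed cells was pulled down with antibodies to the HA tag. A first HA antibody gave 3 immunoprecipitated libraries (replicates 1 to 3), a second gave 1 (replicate 3), and 3 inputs completed the 7. All of them came from induced cells, so the peaks describe the induced, tagged protein and have no uninduced precipitation beside them. The values come from 1 deposited list of 59485 peaks. Of these, 58625 lie on an autosome or a sex chromosome of the main assembly. The list has no column for a single library and no read depth. No value below therefore has a replicate error or a test, and every comparison is a description of this list. The list carries no expression values, so cell identity was not checked against marker genes.

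NELFA is a subunit of the negative elongation factor, a complex that holds RNA polymerase II shortly after it starts transcribing. Heat shock genes are a textbook example of genes with paused polymerase, which is released after heat shock factor 1 binds inverted GAA units, the heat shock element, in their promoters. Hsp70 and Hsp90 proteins fold and mature client proteins with the help of J proteins and nucleotide exchange factors, the chaperonin complex TRiC encloses newly made proteins such as actin and tubulin, and Hspd1 with Hspe1 forms the chaperonin of the mitochondrial matrix.

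A gene was called occupied when a peak's summit, its point of highest signal, lay within 1 kb of either annotated end of the gene. Of the 93 chaperone genes 38 were occupied (40.9%), against 4120 of 21883 protein-coding genes (18.8%). The 38 genes had 36 distinct strongest peaks, because 2 pairs of neighbouring genes shared a peak. In control windows 5 to 7 kb outside each gene, 7 chaperone genes had a summit (7.53%), against 8.6% of all protein-coding genes. The strongest boundary peaks were those of Hsp90aa1, of the shared Hspd1 and Hspe1 promoter, of Hspa8, Hsp90ab1, Cct7, Dnajb1, Dnaja1 and Hspa9. By contrast 55 chaperone genes had no boundary peak, and 48 of these had none further inside the gene either.

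**Figure D1:**
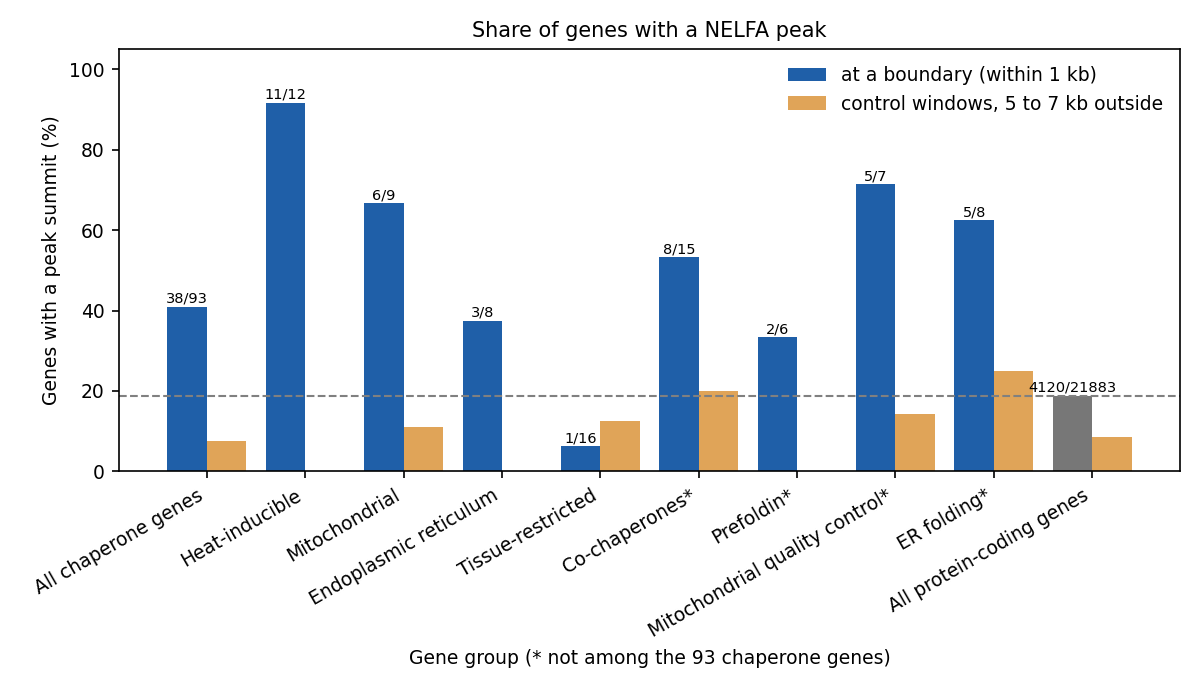
Percentage of genes with a peak summit within 1 kb of an annotated end, for lists of chaperone genes and their partners; numbers give occupied genes over genes in the list, and the dashed line marks the 18.8% of all protein-coding genes. Heat-inducible genes stand at 91.7% and tissue-restricted genes at 6.25%. The lists were chosen with earlier results of these data known.

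The deposited fold enrichment, a linear ratio that the authors' peak caller gave to each peak, had a median of 2.63 over the strongest boundary peaks of the 38 occupied chaperone genes, with a range of 1.86 to 8.53. Over all 4120 occupied protein-coding genes the median was 2.22. Of the 38 genes, 26 lay above that median, 16 above the upper quartile of all occupied genes (2.72) and 9 above their highest decile (3.68). A fold of at least 5 was reached by 4 of the 93 chaperone genes (4.3%), against 0.653% of all protein-coding genes. Among these 4 genes Hspd1 and Hspe1 have the same peak. The counts of genes given here take a shared peak once for each gene. A boundary peak with a −log10 q of at least 4 was found at 27 (29.0%), against 9.81%. The 36 distinct peaks took only 26 distinct folds, and each fold went with 1 value of −log10 q, so the 2 columns give the same ranking and are not separate evidence. The peaks of chaperone genes were 54 to 1228 bp wide with a median of 269.5 bp, and 10 of these (27.8%) spanned at least 500 bp, against a median of 211 bp and 14.8% for all occupied protein-coding genes.

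**Figure D2:**
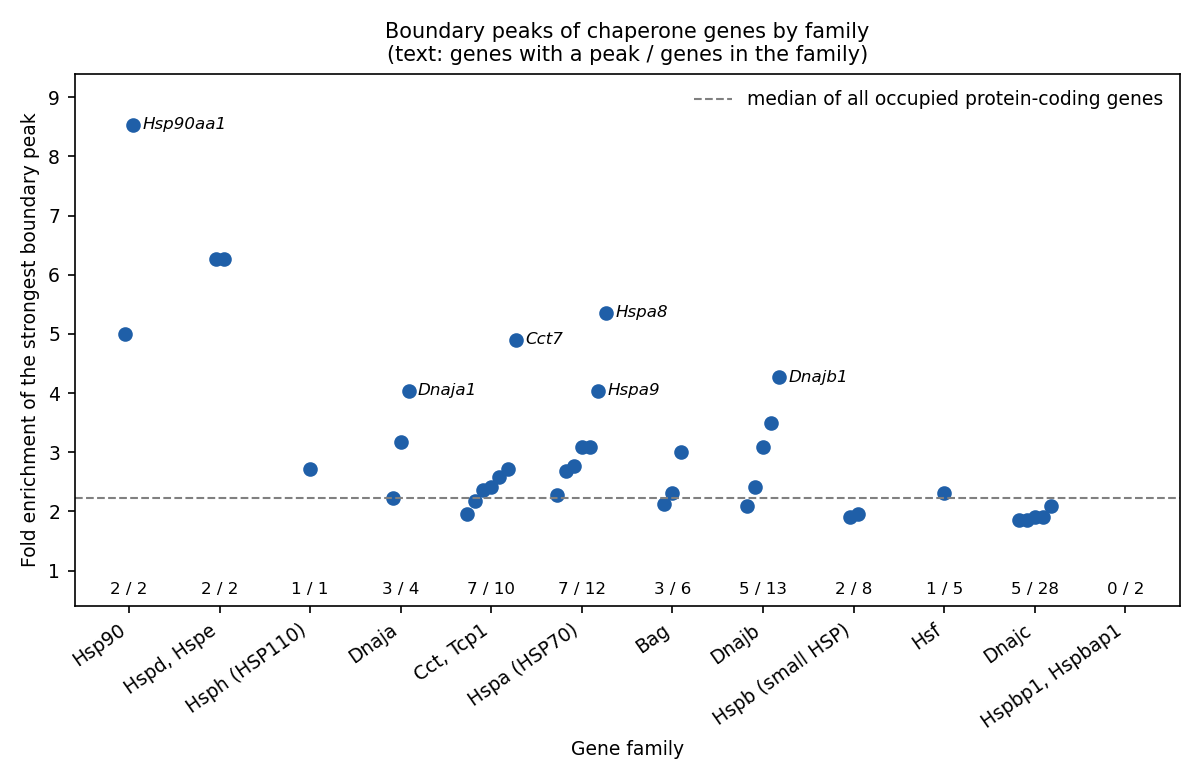
Deposited fold enrichment of the strongest boundary peak of each occupied chaperone gene, by family, on a linear axis; each point is 1 gene, and the numbers give occupied genes over genes in the family. Hsp90aa1 is highest at 8.53, and all 5 Dnajc genes and both Hspb genes lie below the dashed median of all occupied protein-coding genes (2.22).

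The sequences beside 5 chaperone starts are shown for their motifs. They are RefSeq sequences of GRCm38.p6 (mm10) and run 5′ to 3′ along the gene's strand from 250 bases before the listed start to 50 after it. The first 4 belong to the strongest peaks at the start of a gene with a known strand, and the last to Bag3, the heat-inducible gene without a peak. Capitals mark heat shock element pairs (GAANNTTC or TTCNNGAA, which may overlap each other) and CCAAT boxes on either strand (read as ATTGG on the opposite one).
Hspe1, chr1:55087898-55088197, plus strand: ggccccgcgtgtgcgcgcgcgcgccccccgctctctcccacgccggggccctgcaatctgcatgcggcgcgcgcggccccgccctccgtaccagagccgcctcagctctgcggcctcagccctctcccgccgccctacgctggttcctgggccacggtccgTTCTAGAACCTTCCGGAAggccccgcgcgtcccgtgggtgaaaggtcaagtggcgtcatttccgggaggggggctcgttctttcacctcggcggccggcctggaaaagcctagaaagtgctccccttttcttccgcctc
Cct7, chr6:85451255-85451554, plus strand: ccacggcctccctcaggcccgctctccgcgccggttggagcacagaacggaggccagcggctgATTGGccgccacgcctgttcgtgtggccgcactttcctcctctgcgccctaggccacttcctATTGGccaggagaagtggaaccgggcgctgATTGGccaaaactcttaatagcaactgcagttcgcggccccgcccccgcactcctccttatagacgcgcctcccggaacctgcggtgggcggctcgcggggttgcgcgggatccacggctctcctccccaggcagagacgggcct
Dnajb1, chr8:83607925-83608224, plus strand: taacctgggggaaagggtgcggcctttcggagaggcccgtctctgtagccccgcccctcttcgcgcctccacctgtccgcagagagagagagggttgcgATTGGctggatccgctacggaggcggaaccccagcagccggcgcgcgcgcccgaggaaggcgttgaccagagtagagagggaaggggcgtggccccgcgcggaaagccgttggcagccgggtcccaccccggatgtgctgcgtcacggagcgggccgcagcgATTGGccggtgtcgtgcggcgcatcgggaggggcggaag
Dnaja1, chr4:40722218-40722517, plus strand: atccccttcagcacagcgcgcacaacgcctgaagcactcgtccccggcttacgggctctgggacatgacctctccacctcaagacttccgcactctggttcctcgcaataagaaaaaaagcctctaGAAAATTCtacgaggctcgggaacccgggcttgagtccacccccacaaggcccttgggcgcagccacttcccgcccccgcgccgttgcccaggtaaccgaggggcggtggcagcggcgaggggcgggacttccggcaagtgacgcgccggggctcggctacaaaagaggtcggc
Bag3, chr7:128523333-128523632, plus strand: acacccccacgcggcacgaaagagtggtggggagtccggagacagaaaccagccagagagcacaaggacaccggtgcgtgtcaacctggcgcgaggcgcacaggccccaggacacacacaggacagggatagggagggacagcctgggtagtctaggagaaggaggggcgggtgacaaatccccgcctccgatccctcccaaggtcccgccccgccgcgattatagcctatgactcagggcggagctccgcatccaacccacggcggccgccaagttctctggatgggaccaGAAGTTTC
The Hspe1 promoter holds a run of 3 overlapping pairs, and the summit of the peak it shares with Hspd1 lay 110 bp before the Hspe1 start, just upstream of that run. Dnaja1 has 1 pair, which begins at position -124 from its start, while its summit lay 115 bp after the start. Among the 4 summits only that of Hspe1 fell within the printed window. The Cct7 and Dnajb1 windows hold CCAAT boxes and no such pair. Bag3 has 1 pair that begins 42 bp after its start, and no summit within 1 kb of either of its ends.

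Both cytosolic Hsp90 genes were occupied. Hsp90aa1, the inducible isoform (chr12:110691036-110696395), had the peak with the highest fold of all chaperone genes, 8.53 with a −log10 q of 104 and a width of 1080 bp, which ranked 12 among the 4120 occupied protein-coding genes. Its summit lay 91 bp outside the gene's higher coordinate, and a second boundary peak of fold 1.86 lay 745 bp inside. Hsp90ab1, the constitutive isoform (chr17:45567778-45573261), had a fold of 4.99 with a −log10 q of 38.4 and a width of 1228 bp. Its summit lay 29 bp inside the gene, and a second peak of fold 3.00 lay 625 bp outside the same end. The promoter table matched neither gene, so which end is the start was not read from it.

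Hspd1 and Hspe1, which encode the mitochondrial chaperonin and its lid, lie head to head on chromosome 1 (chr1:55077833-55088243 and chr1:55088148-55091317) and overlap at their starts. A single peak of 826 bp covered both starts, with a fold of 6.26 and a −log10 q of 59.8, rank 59. Its summit lay 205 bp inside Hspd1 and 110 bp outside Hspe1, so the list cannot assign it to one gene. Hspd1 had another peak of fold 2.45 at its far end, 280 bp inside the gene.

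Of the 12 Hspa genes, which encode the Hsp70 proteins and their relatives, 7 were occupied (58.3%), against 18.8% of all protein-coding genes. Their median fold was 3.09. These 7 genes had 6 distinct strongest peaks, and 5 of the 12 had a summit within 500 bp of an end. Hspa8, the constitutive cytosolic Hsp70 (chr9:40801276-40805202), had a fold of 5.36 over 864 bp with its summit 35 bp inside the gene, rank 110. Hspa9, the Hsp70 of the mitochondrial matrix, had a fold of 4.04, and the summit lay 340 bp outside the gene. The heat-inducible pair Hspa1a (chr17:34969359-34972156) and Hspa1b (chr17:34956429-34959238) had folds of 3.09 and 2.77, with summits 172 and 430 bp downstream of their starts. These genes are near-identical copies, so how reads were split between them is uncertain. Hspa1l, a testis gene beside Hspa1a, was occupied only through the Hspa1a peak, whose summit lay 719 bp before the Hspa1l start. Hspa4l had a fold of 2.68 and Hspa4 one of 2.27, and both encode Hsp110-type relatives that act as nucleotide exchange factors. Hsph1, the stress-inducible member of that group and the only Hsph gene, had a fold of 2.72, and the summit lay 209 bp inside the gene. Hspa2, Hspa12a, Hspa12b, Hspa13 and Hspa14 had no boundary peak, and neither did Hspbp1 and Hspbap1, which were taken in by their symbols.

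The J proteins bring clients to Hsp70 and stimulate its ATPase, and the symbols divide them into 3 classes. Among Dnaja genes 3 of 4 were occupied (75%), against 18.8% of all protein-coding genes. Dnaja1, a cytosolic partner of Hsp70 (chr4:40722468-40734965), had a fold of 4.04 over 855 bp, Dnaja2 one of 3.18, and the mitochondrial Dnaja3 one of 2.22, while Dnaja4 had none. Among Dnajb genes 5 of 13 were occupied (38.5%). Dnajb1, the main heat-inducible J protein (chr8:83608175-83612653), had a fold of 4.27 over 888 bp with its summit 131 bp downstream of the start and a second peak of fold 2.13 located 341 bp upstream. Dnajb4 followed with 3.49, then Dnajb9, an endoplasmic reticulum J protein, with 3.09, Dnajb12 with 2.41 and Dnajb14 with 2.09. Dnajb2, Dnajb3, Dnajb5, Dnajb6, Dnajb7, Dnajb8, Dnajb11 and Dnajb13 had no boundary peak.

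Dnajc is the largest and most varied class, and 5 of its 28 genes were occupied (17.9%), close to the 18.8% of all protein-coding genes. All 5 folds lay below the 2.22 median of all occupied protein-coding genes. The mitochondrial Dnajc30 had a fold of 2.09. The mitochondrial Dnajc11 and the ribosome-associated Dnajc2 each had 1.91, and Dnajc8 and the endosomal Dnajc13 each had 1.86. None of these reached a −log10 q of 4. The 23 genes Dnajc1, Dnajc3, Dnajc4, Dnajc5, Dnajc5b, Dnajc5g, Dnajc6, Dnajc7, Dnajc9, Dnajc10, Dnajc12, Dnajc14, Dnajc15, Dnajc16, Dnajc17, Dnajc18, Dnajc19, Dnajc21, Dnajc22, Dnajc24, Dnajc25, Dnajc27 and Dnajc28 had no boundary peak.

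Of the 10 genes with chaperonin symbols 7 were occupied (70%), against 18.8% of all protein-coding genes, with a median fold of 2.41. All 7 were among the 8 genes for the ubiquitous subunits of TRiC, the cytosolic ring that folds actin and tubulin, and Cct2 was the exception. Cct7 (chr6:85451505-85468477) stood out with a fold of 4.90 over 1007 bp, rank 158, with its summit 575 bp inside the gene and the coding gene Pradc1 nearby. Its 1 Mb window held 173 peaks, against a median of 14 for all protein-coding genes, and the part of this dense coverage in the value was not tested. The other folds were 2.72 at Cct3, 2.59 at Cct8, 2.41 at Tcp1, 2.36 at Cct5, 2.18 at Cct6a and 1.95 at Cct4. Cct6b, a testis counterpart of Cct6a, and Cct8l1 had no boundary peak.

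Several Bag proteins promote nucleotide release from Hsp70, and 3 of 6 Bag genes were occupied (50%), against 18.8% of all protein-coding genes. Bag1 had a fold of 3.00 and 3 boundary peaks in all, one of them at the far end at a fold of 2.00, where the summit lay 611 bp outside the gene. Bag4 also had 3 boundary peaks, the strongest of fold 2.31, and Bag6 had 1 of fold 2.13. Bag2, Bag3 and Bag5 had none. Hsf1, the factor that activates heat shock genes, had a fold of 2.31, and the summit lay 127 bp inside the gene and within 1 kb of Bop1 as well. Hsf2, Hsf3, Hsf4 and Hsf5 had none, so 1 of 5 Hsf genes was occupied (20%). Of the 8 small heat shock protein genes and others that carry the Hspb symbol, 2 were occupied (25%). Hspb8 had a fold of 1.95 and Hspb1 one of 1.91, neither with a −log10 q of 4. Hspb2, Hspb3, Hspb6, Hspb7, Hspb9 and Hspb11 had no boundary peak.

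Heat-response genes and tissue-restricted genes gave the highest and the lowest share of the lists examined. Of 12 heat-inducible genes, a list that also holds the mainly constitutive Hspa8 and Hsp90ab1, 11 were occupied (91.7%), with a median fold of 4.27 and none with a summit in the control windows. They were Hsp90aa1, Hsp90ab1, Hspd1, Hspe1, Hspa8, Hspa1a, Hspa1b, Hsph1, Dnajb1, Dnaja1 and Hspb1, and Bag3 was the exception. Of 16 genes known mainly from testis, muscle or other differentiated tissue, 1 was occupied (6.25%), and 2 had a summit in the control windows. The occupied one was Hspa1l, and within 500 bp of an end none of the 16 had a summit. The 15 without were Hspa2, Hspb2, Hspb3, Hspb6, Hspb7, Hspb9, Dnajb3, Dnajb7, Dnajb8, Dnajb13, Dnajc5b, Dnajc5g, Cct6b, Cct8l1 and Hsf5. Both lists were chosen with earlier results of these data known, and which genes were listed bears on both shares. The heat-inducible list overlaps the heat shock genes already known to be occupied in these data. Neither count, nor the contrast between them, is therefore independent evidence. The 50 chaperone genes in no list were occupied in 19 cases (38%), with a median fold of 2.31. The share of all protein-coding genes, for comparison, was 18.8%.

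By compartment, 6 of 9 genes for mitochondrial chaperones were occupied (66.7%), against 18.8% of all protein-coding genes. They were Hspd1 and Hspe1 with their shared peak, Hspa9, Dnaja3, Dnajc30 and Dnajc11. Dnajc15, Dnajc19 and Dnajc28 were not occupied. A boundary peak with a −log10 q of at least 4 was found at 4 of the 9, and 1 had a summit in the control windows (11.1%). Of the 8 listed endoplasmic reticulum genes 3 were occupied (37.5%), Dnajb9, Dnajb12 and Dnajb14, and Dnajb11, Dnajc1, Dnajc3, Dnajc10 and Hspa13 were not. The excluded pair gave 1 of 2, with Hspa5 occupied at a fold of 2.59, its summit 61 bp inside the gene, and Hsp90b1 without a boundary peak.

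Where the strand was known, the strongest boundary peak of every occupied chaperone gene lay at its start. Over all occupied protein-coding genes with a known strand, the strongest peak lay at the start in 2889 and at the end in 460. RefSeq promoters gave a strand for 75 of the 93 genes. In 28 of these a summit lay within 1 kb of the annotated start (37.3%), against 17.4% of protein-coding genes with a strand, and 2 had one within 1 kb of the annotated end (2.67%), against 4.39%. Those 2, Hspd1 and Bag1, also had one at the start, so 26 had a summit at the start only and 0 at the end only. Taking each gene's strongest peak, 24 of 28 summits lay downstream of the start (85.7%), against 74.5% of 2889 protein-coding genes. The stretch from 0 to 250 bp downstream held 19 of the 28 (67.9%), against 51.5%. The median offset was 144 bp downstream for chaperone genes, against 105 bp for all protein-coding genes. The 4 upstream summits were those of Hspa1l, Cct3, Hspe1 and Dnajb14. These positions depended on which start was used, since the promoter table places some starts away from the gene's boundary. From the nearest listed start, a measure added after the data were seen, 20 of the 28 summits lay downstream (71.4%), against 66.0% of the 2889 protein-coding genes. The summits of Cct5, Dnajb4, Hspd1 and Hspa4l then joined the upstream ones, which made 8. The Hspa4l summit, 967 bp from the gene's boundary, lay 146 bp before a listed start, and the Dnajc13 summit, at 770 bp, lay 92 bp after one. On that measure 23 of the 28 summits were within 250 bp of a start in either direction (82.1%), against 72.4%, and the median offset was 81 bp downstream, against 64 bp.

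**Figure D3:**
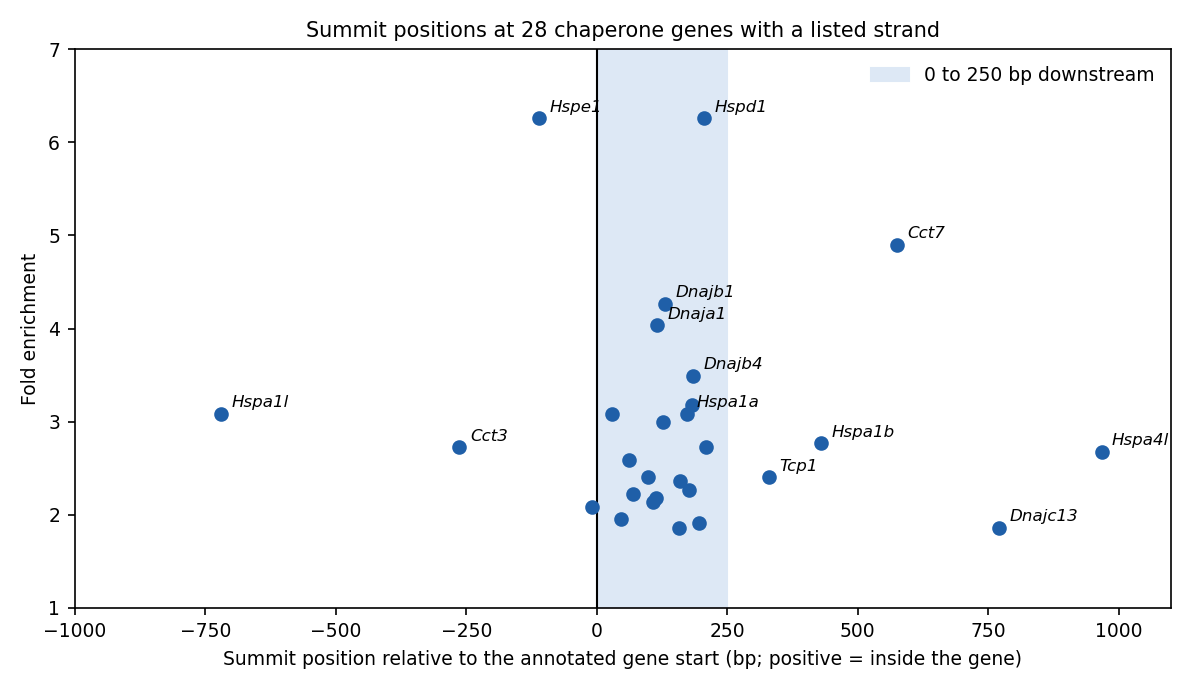
Position of the strongest boundary summit relative to the annotated start for the 28 occupied chaperone genes with a known strand; the horizontal axis is distance in bp, positive downstream, and the vertical axis is the deposited fold enrichment. Each point is 1 gene. Of the 28 summits 19 lie 0 to 250 bp downstream of the annotated start, and 17 do when measured from the nearest listed start (not drawn).

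Over all 38 occupied chaperone genes, whether or not a strand was known, the summit lay inside the gene in 32 (84.2%), against 71.1% of all occupied protein-coding genes, and its median distance from the boundary was 129 bp, against 188.5 bp. Of the 38 summits 13 were within 100 bp, 16 between 100 and 250 bp, 5 between 250 and 500 bp and 4 beyond 500 bp. Over all occupied protein-coding genes 26.8, 32.5, 20.8 and 19.8% of summits fell into these 4 ranges. In 17 of the 38 (44.7%) the summit also lay within 1 kb of either end of another protein-coding gene. Over all occupied protein-coding genes the share was 25.8%. For this count the start and the end of the neighbour were not told apart. Besides the 4 genes that share with another chaperone gene (Hspd1 with Hspe1, and Hspa1a with Hspa1l), such neighbours included Fubp1 at Dnajb4, Aptx at Dnaja1, Chmp5 at Bag1, Psph at Cct6a, Psmc2 at Dnajc2 and Bud23 at Dnajc30. Counting only summits near no other coding gene, a rule added after the data were seen, left 21 of 93 chaperone genes (22.6%), against 14.0%.

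Sequence around the start differed between occupied and unoccupied chaperone genes in its GC boxes. Promoters were grouped by a summit within 1 kb of the annotated start of the gene, and the sequence searched was that of the listed start nearest to it. The motif GGGCGG, on either strand, was found in 26 of 28 promoters with a summit at the start (92.9%), against 27 of 47 chaperone promoters without one (57.4%), and in 46.3% of all 17491 promoters of the same 300 bases. The same direction held over all protein-coding genes, 65.1% with a summit at the start against 42.4% without. Dnajc1 and Dnajc25, counted among the 47, have a summit within 1 kb of the listed start that was searched. Grouped by that start instead, GC boxes were in 28 of 30 chaperone promoters with a summit (93.3%), against 25 of 45 without one (55.6%). The ratio of observed to expected CpG had a median of 0.927 in chaperone promoters with a summit, against 0.796 in those without. Over all protein-coding genes it was 0.826 with a summit and 0.483 without. GC content had medians of 62.5% in promoters with a summit and 61.7% in those without, with 56.3% in all promoters. The TATA box TATAAA was in 0 of 28 chaperone promoters with a summit and 3 of 47 without one, and in 8.72% of all protein-coding promoters with a summit and 14.3% without. CCAAT was in 42.9% with and 36.2% without a summit, and over all protein-coding genes in 37.5% with and 39.5% without. The E-box CACGTG was in 14.3% of chaperone promoters with a summit and 10.6% without, and over all protein-coding genes in 10.9% with and 7.28% without. In all 17491 promoters together TATAAA was in 13.3%, CCAAT in 39.2% and CACGTG in 7.91%. All were searched on both strands, and a match describes these letters only.

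A heat shock element pair, GAANNTTC or TTCNNGAA, was in 9 of 28 chaperone promoters with a summit at the start (32.1%), against 8 of 47 without one (17.0%). Over all protein-coding genes it was in 13.6% with a summit and 14.0% without, and in 13.9% of all promoters together. The 9 were Hspe1, Dnaja1, Hspa1a, Hspa1b, Hsph1, Cct5, Cct6a, Hspb1 and Hspb8. Among the 9 heat-inducible genes with a promoter entry 7 held a pair (77.8%), Bag3 included, against 4 of 14 tissue-restricted genes (28.6%). Only 1 listed start per gene was searched, and Hspd1, which has 2, was counted without a pair. The run printed at Hspe1 lies inside Hspd1, just upstream of its other listed start, so these counts leave out that run for Hspd1. A run of 3 or more alternating units was rarer, in Hspe1, Hsph1 and Dnajb6 (4.0% of 75), against 0.48% of all promoters, and Dnajb6 had no boundary peak.

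**Figure D4:**
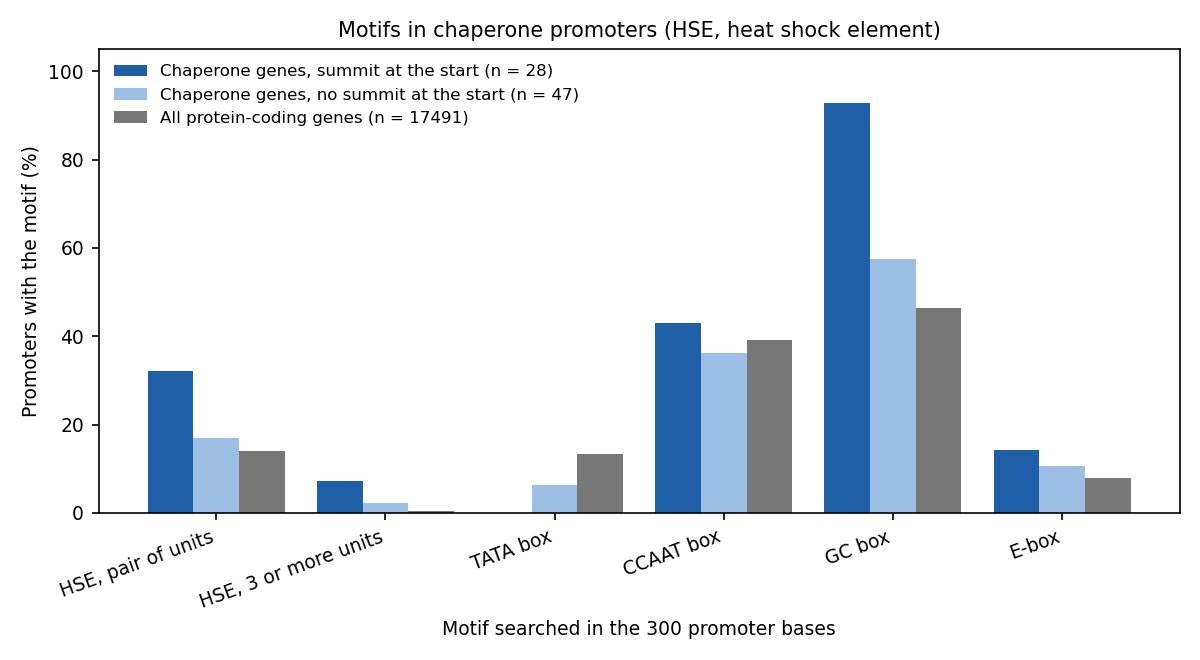
Percentage of promoters (250 bases before to 50 after the start) that hold each motif on either strand, for chaperone genes with and without a summit at the start and for all protein-coding genes. GC boxes reach 92.9% in chaperone promoters with a summit and 57.4% in those without.

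Peaks further inside genes were no more frequent in chaperone genes than in general. A summit more than 1 kb inside the gene was found in 17 of 93 (18.3%), against 20% of all protein-coding genes. Of these, 7 had no boundary peak: Dnajc1 with 2 interior peaks, the stronger of fold 3.22, Dnajc5b with 2.77, Dnajc25 with 2.45, Hsf3 with 2 peaks up to 2.31, Dnajc14 with 2.22, Hsf4 with 2 peaks up to 2.09 and Dnajc27 with 1.91. At Dnajc1 and Dnajc25 a summit lay within 1 kb of a start that the promoter table lists inside the gene, so with any listed start 30 of 75 chaperone genes counted (40.0%), against 18.6%.

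The 1 kb limit divided few genes. Just inside it were Hspa4l at 967 bp, Dnajc13 at 770 bp and Hspa1l at 719 bp. Just outside were Hspbp1, whose nearest summit lay 1514 bp outside the gene with a fold of 1.95, Dnajc1 at 1607 bp and Hsf4 at 1640 bp inside. Of the 55 unoccupied genes 40 had their nearest summit beyond 10 kb, with a median of 32900 bp. Occupied chaperone genes were shorter, with a median length of 13559 bp against 23399 bp for unoccupied ones and 17170 bp for all protein-coding genes. Their 1 Mb windows held a median of 16.5 peaks, against 13 for unoccupied ones and 14 for all protein-coding genes. The part of gene length and local peak density in the counts was not tested. Outside windows of 30 or more peaks 29 of 77 chaperone genes were occupied (37.7%), against 13.5% of all protein-coding genes there.

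Partner genes outside the set also had shares above the 18.8% of all protein-coding genes. The shares were 53.3% for co-chaperones, 33.3% for prefoldin, 71.4% for mitochondrial quality control and 62.5% for endoplasmic reticulum folding. The chaperone genes themselves stood at 40.9%, so a raised share was not particular to them. Of 15 co-chaperone genes of Hsp70 and Hsp90, 8 were occupied (53.3%), led by St13, which links the 2 machines, at 4.31, the Hsp90 co-chaperone Ptges3 at 3.54, Fkbp4 at 2.72 and Stip1, which also bridges Hsp70 and Hsp90, at 2.63, while Cdc37, Cdc37l1 and Fkbp5 had no boundary peak. In the control windows 3 of these 15 genes had a summit (20%), against 8.6% of all protein-coding genes. Of 6 genes for prefoldin, which hands actin and tubulin to TRiC, 2 were occupied, Pfdn2 at 2.50 and Pfdn1 at 2.45, and Pfdn4, Pfdn5 and Pfdn6 had none. Of 7 genes for mitochondrial quality control (chaperones, co-chaperones, proteases and unfoldases) 5 were occupied: Trap1, the mitochondrial Hsp90, at 2.77, Clpb and Htra2 at 2.18, Clpx at 2.04 and the protease gene Lonp1 at 4.27, where the summit lay 845 bp beyond its annotated end. Clpp and Hscb had none, and 1 of the 7 had a summit in the control windows (14.3%). Of 8 endoplasmic reticulum folding genes 5 were occupied, led by Calr at 4.45, P4hb at 2.36, Pdia3 at 2.13 and Pdia4 at 2.09, and Hyou1, Pdia6 and Sdf2l1 had none. In the control windows 2 of these 8 had a summit (25%), and 0 of the 6 prefoldin genes did.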

How the data were processed

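ChIP-seq of tagged NELFA was read from 1 peak list, which stands for 7 libraries. The submitters' processing notes name MACS2 (no version), mm10, Bowtie2 2.2.9, Trim Galore 0.4.2 and SAMtools 1.4. Peak-call settings, pooling and the handling of multi-mapping reads were not given in the sources used here. The deposited peaks all have R1234 and MAPQ0 in their names. No source explains these tags, which may bear on pooling and on reads that align to several places, as at Hspa1a, Hspa1b and the pseudogenes. The deposited columns hold a fold enrichment (a linear ratio), a −log10 q-value, a summit offset and a score and a p-value that were not used. The lowest deposited −log10 q was 1.31, a q-value limit of 0.05. Depth is unknown, so no interval is given.

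Gene ends came from the RefSeq gene table of GRCm38.p6, which gives no strand, and strand and promoters from RefSeq promoter sequences. No value was tested, since no column belongs to a single library; columns of other samples numbered 0. Members and gene lists were chosen with earlier results of these data known. Named genes were the 15 chaperone genes of highest fold, the 3 strongest per family, and all of the heat-inducible, tissue-restricted, mitochondrial and endoplasmic reticulum lists. All other chaperone genes were named by symbol within counts. Per partner list, up to 4 genes by fold and 3 unoccupied in alphabetical order were named. Values of further chaperone genes, Clpx and the neighbours named near the same summits were added after their values were seen. Promoters were printed for the 4 strongest peaks at starts and for heat-inducible genes without a peak. The peak assignment was checked on simulated data with planted summits. Python 3.11.15, numpy 2.4.6, pandas 2.3.3 and matplotlib 3.10.9 were used. Expression and accessibility libraries of the series were not analysed here.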

Additional observations from a re-analysis of the deposited data

How the results depend on the processing

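The count of 38 occupied chaperone genes stayed within 1.5 times under windows of 500 bp (35) and 2 kb (41), −log10 q values of 4 or more (27), folds at or above the list's median fold (31), overlap of the interval (38), starts only (28 of 75), any listed start (30 of 75), the list without chromosomes 6 and 8 (34 of 87) and genes outside dense windows (29 of 77). In each of these the share of chaperone genes was above that of all protein-coding genes. Control windows gave 7, and summits near no other coding gene gave 21. That rule, any listed start, the offset from the nearest listed start (20 of 28 downstream, against 24 from the annotated start) and the grouping of promoters by the start searched (GC box 28 of 30, heat shock pair 9 of 30) were chosen after seeing the data. Interior peaks numbered 13 beyond 2 kb and 8 at that q limit, and runs of 3 or more heat shock units left 3 promoters of 17. The median fold was 2.50 with each peak counted once, and 2.41 with either other window, and the share of summits inside the gene was 82.9% at 500 bp. At that q limit no Dnajc or Hspb gene was occupied, and 4 of 9 mitochondrial genes were. With starts only, 3 of 6 mitochondrial genes were occupied. Outside dense windows 4 of 9 Hspa, 1 of 4 Bag and 0 of 2 Hsf genes were. No replicate could be left out, since the list has no column per library. No paired analysis was possible because the result comes from no test over samples. What limits the values is the unknown depth and the single list.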

Other observations

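Pseudogenes of the same families had a share near that of all pseudogenes. Of 18 annotated chaperone pseudogenes 1 had a summit within 1 kb of an end (5.56%), against 747 of 10429 pseudogenes in all (7.16%). It was Hspd1-ps3, with a fold of 2.13, and 3 summits lay inside this pseudogene. The treatment of reads that align to both a gene and its copies was not given in the sources used here.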
